A study of Mus musculus with 21 samples.

Results

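The heavy chain constant genes set the isotype of an antibody. There are 8 of them in mouse, Ighm, Ighd, Ighg3, Ighg1, Ighg2b, Ighg2c, Ighe and Igha, and all 8 were found by symbol among the 56953 genes counted in RNA of sorted peritoneal B cells. Their RNA levels were described in 21 bulk RNA-seq libraries, each gene on its own and as a share of all heavy chain constant counts. By the labels, 8 libraries were of B-1a cells (4 WT, 4 TET2-KO), 7 of B-1b cells (4 WT, 3 TET2-KO) and 6 of B-2 cells (2 WT, 4 TET2-KO). All mice were untreated C57BL/6 animals that the paper calls young, without an age in weeks or months. The TET2-KO mice lacked TET2, an enzyme that oxidizes methylated cytosine in DNA, in every tissue, through deletion of exons 8 to 10 of Tet2, so a value in B cells may reflect TET2 loss in other cells too. WT libraries were labelled 1 to 4 for B-1 cells and 1 and 4 for B-2 cells. The labels do not say that libraries came from separate mice. For receptor sequences the paper speaks of mice pooled within a group, with n equal to the B-1 library numbers given here. It gives no such n for B-2 cells. The p-values measure the spread between these libraries, part of which may be technical.

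A B cell first joins its rearranged variable exon to the Ighm exons, which encode the constant part of IgM, and by alternative splicing of the same long transcript to the Ighd exons, which encode IgD. Class switching is a DNA recombination that replaces Ighm with a constant gene further downstream, so that the cell and its descendants make IgG, IgA or IgE instead. Before it switches, a cell also transcribes the unrearranged target gene as a non-coding germline transcript, and counts per gene do not separate both kinds of RNA, nor the secreted from the membrane form. B-1 cells of the peritoneal cavity are known for natural IgM, and IgG3 is a mouse subclass often directed against carbohydrates. B-2 cells of the naive type carry high surface IgD.

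The genes lie next to each other on the minus strand of chromosome 12 of the GRCm39 genome. In the order of transcription these are Ighm (chr12:113382178-113386350), Ighd (chr12:113370224-113379944), Ighg3 (chr12:113319844-113324852), Ighg1 (chr12:113288860-113294143), Ighg2b (chr12:113266585-113271553), Ighg2c (chr12:113248945-113252552), Ighe (chr12:113232880-113236868) and Igha (chr12:113218450-113223856). The start of Ighd lies 6.4 kb downstream of the start of Ighm, and the starts of Ighg3 and Igha lie 61.5 kb and 162.5 kb downstream. The 4 Ighg genes are close copies of each other, and whether reads tell them apart decides whether their levels can be given singly. Their first exons, which encode the CH1 domain, are printed 5′ to 3′ on the coding strand, with capitals at the 88 of 291 positions where the 4 sequences are not all the same.
Ighg3, chr12:113324562-113324852: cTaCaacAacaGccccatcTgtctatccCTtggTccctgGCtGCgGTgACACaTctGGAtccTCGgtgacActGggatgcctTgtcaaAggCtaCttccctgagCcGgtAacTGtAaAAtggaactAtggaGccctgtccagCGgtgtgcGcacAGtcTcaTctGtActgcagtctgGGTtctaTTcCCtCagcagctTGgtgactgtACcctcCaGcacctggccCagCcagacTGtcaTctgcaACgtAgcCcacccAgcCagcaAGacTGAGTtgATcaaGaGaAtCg
Ighg1, chr12:113293853-113294143: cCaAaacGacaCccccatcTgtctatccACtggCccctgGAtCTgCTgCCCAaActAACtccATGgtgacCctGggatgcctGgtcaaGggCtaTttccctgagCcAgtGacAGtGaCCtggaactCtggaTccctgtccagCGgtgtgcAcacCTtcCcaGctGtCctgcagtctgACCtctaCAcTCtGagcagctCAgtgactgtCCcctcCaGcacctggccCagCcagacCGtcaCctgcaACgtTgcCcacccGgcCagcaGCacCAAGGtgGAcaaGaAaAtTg
Ighg2b, chr12:113271263-113271553: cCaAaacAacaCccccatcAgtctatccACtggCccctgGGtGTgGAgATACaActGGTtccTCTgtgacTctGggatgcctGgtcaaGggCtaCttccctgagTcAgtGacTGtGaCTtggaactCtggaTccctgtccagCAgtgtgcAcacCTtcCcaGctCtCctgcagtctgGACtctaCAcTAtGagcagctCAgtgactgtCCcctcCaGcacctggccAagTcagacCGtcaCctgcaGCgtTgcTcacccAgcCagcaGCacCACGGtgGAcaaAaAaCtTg
Ighg2c, chr12:113252262-113252552: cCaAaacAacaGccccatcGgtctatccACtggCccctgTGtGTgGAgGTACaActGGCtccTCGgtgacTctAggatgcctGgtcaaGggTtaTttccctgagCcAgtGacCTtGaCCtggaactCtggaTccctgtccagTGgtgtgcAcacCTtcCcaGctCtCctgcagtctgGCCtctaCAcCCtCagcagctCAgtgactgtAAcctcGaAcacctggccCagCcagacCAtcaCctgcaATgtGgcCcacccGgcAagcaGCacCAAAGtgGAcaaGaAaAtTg

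In these exons Ighg3 shared 78.4% to 79.0% of its bases with the other Ighg genes, and the other pairs shared 87.6% to 88.3%. The hinge exons, which encode the flexible stretch between the antigen-binding arms and the stem, differ in length as well, from 39 to 66 bases, and are shown for that difference.
Ighg3, 48 bases, chr12:113324149-113324196: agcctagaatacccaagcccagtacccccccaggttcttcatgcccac
Ighg1, 39 bases, chr12:113293464-113293502: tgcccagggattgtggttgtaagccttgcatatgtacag
Ighg2b, 66 bases, chr12:113270881-113270946: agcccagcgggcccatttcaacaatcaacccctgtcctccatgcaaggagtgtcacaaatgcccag
Ighg2c, 63 bases, chr12:113251883-113251945: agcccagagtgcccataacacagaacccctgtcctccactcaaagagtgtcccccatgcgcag

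Across all their exons, windows of 50 bases that occur exactly in another constant gene made up 6.78% of the windows of Ighg2c, 4.57% of Ighg2b, 1.76% of Ighg3 and 0.433% of Ighg1, and 0 windows of Ighm, Ighd, Ighe and Igha. With windows of 75 bases these shares were 0.672% for Ighg2c, 0.892% for Ighg2b, 0.669% for Ighg3 and 0 for Ighg1. The authors left out fragments that aligned to several places, so most but not all reads of an Ighg gene could be placed. The shares are not the error of a count. Small values of Ighg1 and Ighg2c beside large ones of Ighg2b and Ighg3 remain uncertain by an amount that was not measured. The Ighg2c exons were taken from the C57BL/6 reference, which carries this gene where other strains carry Ighg2a.

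The total per library ranged from 9667187 to 24152518 counts in genes, with a median of 17425219, and the heavy chain constant genes took 0.919% to 2.32% of it, from 88804 to 477767 counts. Levels are given in CPM, the gene's counts for every 1000000 counts in genes of the library, and shares in percent of the heavy chain constant counts. Gene-level Tet2 counts do not check the genotype labels, since exons outside the deletion are still counted, and they ran from 7.20 to 25.3 CPM in WT and from 13.1 to 46.3 CPM in TET2-KO libraries. The B cell marker Cd79a, part of the B cell receptor complex, stood at 6667 to 12101 CPM over all libraries, and 6 macrophage markers, Lyz2 among them, summed to between 4611 and 24773 CPM. In bulk libraries, fewer cells that express a gene and less RNA of it per cell cannot be told apart.

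The markers used in the sort were then checked. In all, 5 WT libraries went against their subset labels. Fcer2a, which encodes CD23 and is high in B-2 cells, stood at 669 to 877 CPM in TET2-KO B-2 cells, at 5.08 to 15.4 CPM in TET2-KO B-1a cells and at 37.3 to 41.9 CPM in TET2-KO B-1b cells. The library labelled B-1a WT 1 held 694 CPM and the library labelled B-1b WT 2 held 519 CPM, whereas the library labelled B-2 WT 1 held 20.2 CPM. Cd5, the marker of B-1a cells, stood at 16.7 to 23.3 CPM in TET2-KO B-1a and at 2.87 to 6.03 CPM in TET2-KO B-1b cells. It was 1.41 CPM in the library labelled B-1a WT 2 and 14.04 CPM in the library labelled B-1b WT 1. The libraries labelled WT 3 and WT 4 had none of these discrepancies. Those labelled WT 1 and WT 2 also held fewer genes with a count, 18074 to 19255 against 25898 to 29339 in WT 3 and WT 4. TET2-KO libraries held 17816 to 35576 such genes. Leaving out WT 1 and WT 2 thus changes more than the markers. Comparisons of the constant genes with WT cells are therefore given with all libraries as labelled and again without those labelled WT 1 and WT 2.

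Ighm was the most abundant constant gene in all 21 libraries. In TET2-KO B-1a cells it reached 16378, 17412, 15104 and 9542 CPM in libraries 1 to 4. In TET2-KO B-1b cells it reached 17429, 17320 and 15997 CPM. TET2-KO B-2 cells held 9253, 9639, 11578 and 6406 CPM. All B-1b values lay above all B-2 values, and B-1a library 4, at 9542 CPM, fell among the B-2 libraries.

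As a share, Ighm made up 96.6%, 97.6%, 96.2% and 95.2% of the constant counts in TET2-KO B-1a libraries and 93.9%, 94.4% and 91.5% in B-1b libraries. It made up 75.6%, 75.3%, 76.9% and 69.7% in B-2 libraries. The share in B-1a cells was higher than in B-2 cells by 22.0 percentage points (96.4% ± 0.993 against 74.4% ± 3.17, SD, n = 4 and 4), and that in B-1b cells (93.3% ± 1.54, n = 3) by 18.9 points. Ighd filled the rest of the B-2 counts, and surface IgD was part of the sort gate, so these differences are a description and carry no test. With Ighd left out of the denominator, the Ighm share of B-1a cells differed from that of B-2 cells by -0.00659 points and that of B-1b cells by -3.01 points.

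By its own level, Ighm was 0.91 log2 higher in TET2-KO B-1a than in B-2 cells (SE 0.30) and 1.02 higher in B-1b than in B-2 cells (SE 0.32). Neither passed edgeR's quasi-likelihood test after Benjamini-Hochberg adjustment over all genes (adjusted p = 0.0885 and 0.113). With the replicate number as a block over all TET2-KO subsets, a pairing that no label states, the first difference was 0.90 with an adjusted p of 0.0150. B-1a and B-1b cells differed by -0.12 (SE 0.32, adjusted p = 0.957).

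**Figure D1:**
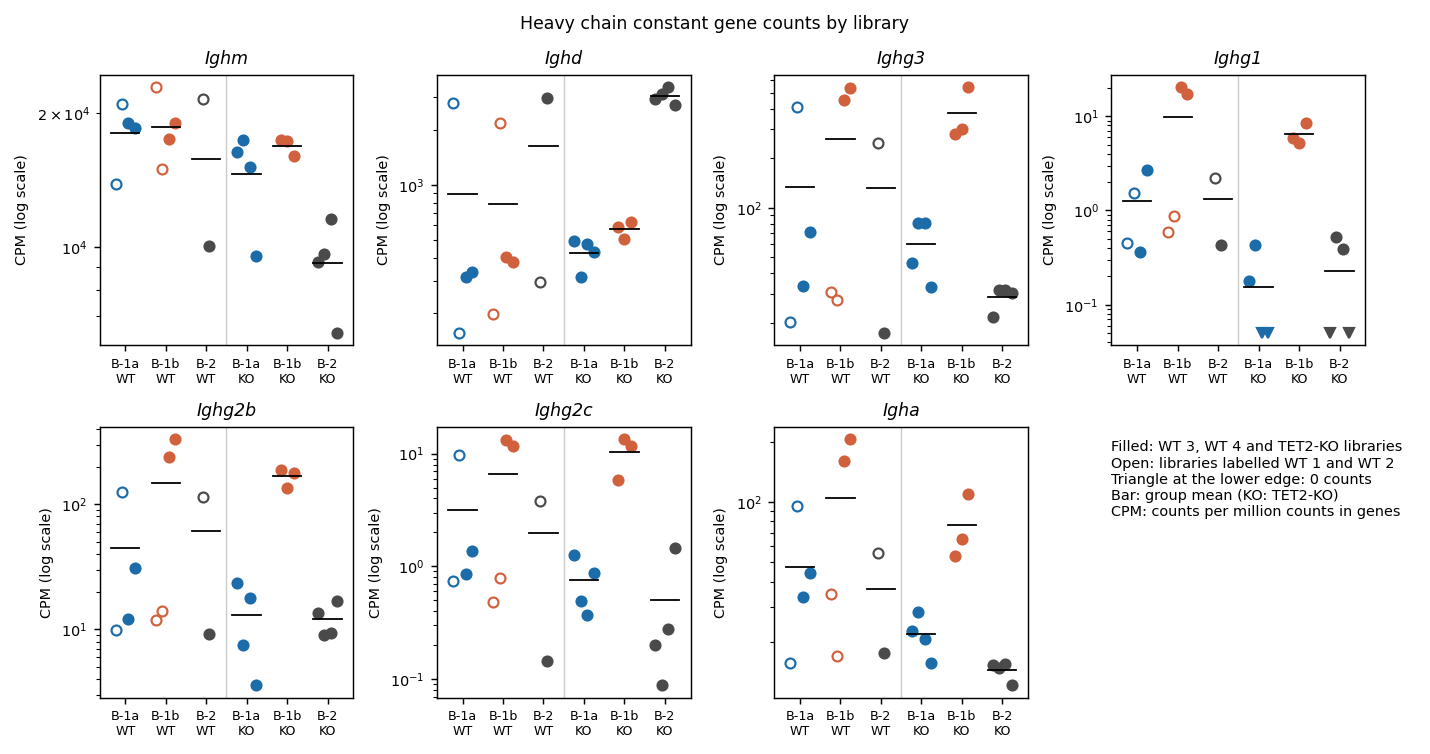
CPM of 7 heavy chain constant genes in every library, on log axes, by subset and genotype, with bars at the group means and open points for the libraries labelled WT 1 and WT 2. In TET2-KO cells Ighd was 2720 to 3422 CPM in B-2 and at most 626 CPM in B-1 libraries, and Ighg3, Ighg2b, Ighg2c and Igha stood higher in the 3 B-1b libraries than in every B-1a and B-2 library.

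Ighd set the TET2-KO B-2 libraries clearly apart from those of both B-1 subsets. B-2 libraries 1 to 4 held 2935, 3114, 3422 and 2720 CPM, B-1a libraries 491, 314, 473 and 430 CPM, and B-1b libraries 587, 507 and 626 CPM. Every B-2 value lay above every B-1 value, and the lowest B-1b value (507 CPM) was close to the highest B-1a value (491 CPM). Low surface IgD was part of the gate for B-1 cells, so this difference is a description of the sort and carries no test. The fitted log2 fold change was -2.61 (SE 0.21) for B-1a against B-2 cells and -2.26 (SE 0.24) for B-1b against B-2 cells. As a share of the constant counts, Ighd made up 24.0%, 24.3%, 22.7% and 29.6% in B-2 cells and between 1.76% and 4.29% in the 7 B-1 libraries.

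Among the WT libraries Ighd was high where Fcer2a was high. The library labelled B-1a WT 1 held 2785 CPM of Ighd against 155, 312 and 332 CPM in B-1a WT 2, 3 and 4. The library labelled B-1b WT 2 held 2165 CPM against 197, 405 and 379 CPM in B-1b WT 1, 3 and 4. The library labelled B-2 WT 1 held 294 CPM, and B-2 WT 4 held 2977 CPM. Of the 21 libraries, the 7 with 519 to 877 CPM of Fcer2a held 2165 to 3422 CPM of Ighd, and the other 14 held at most 76.1 CPM of Fcer2a and at most 626 CPM of Ighd.

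**Figure D2:**
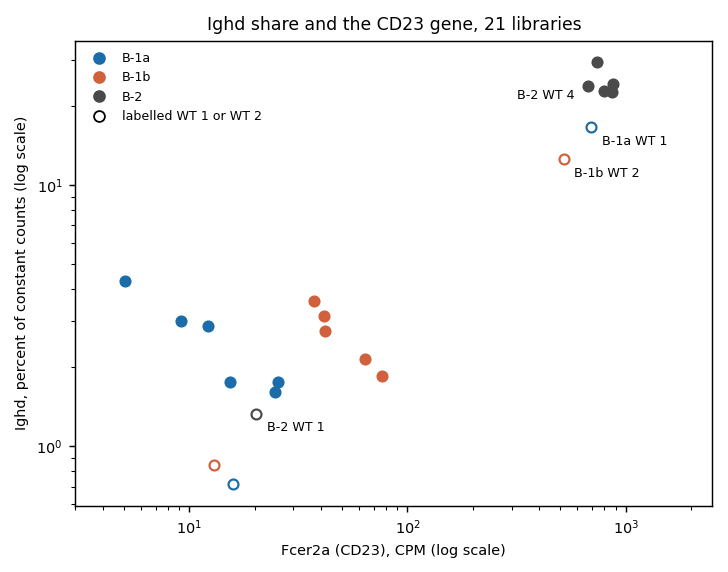
Ighd in percent of the constant counts against Fcer2a in CPM in each of the 21 libraries, both on log axes, colored by subset label, with open points for the libraries labelled WT 1 and WT 2. The libraries labelled B-1a WT 1 (694 CPM of Fcer2a) and B-1b WT 2 (519 CPM) lie with the TET2-KO B-2 libraries, and B-2 WT 1 (20.2 CPM) lies with the B-1 libraries.

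The switched isotypes, the sum of the 4 Ighg genes, Ighe and Igha, took a small part of the constant counts, and B-1b cells held most. In TET2-KO B-1b cells they made up 2.89%, 2.83% and 4.88% of the constant counts in libraries 1 to 3. In TET2-KO B-1a cells they made up 0.551%, 0.657%, 0.766% and 0.530%, and in TET2-KO B-2 cells 0.416%, 0.437%, 0.382% and 0.658%. Every B-1b library lay above every B-1a and B-2 library (3.53% ± 1.17, SD, against 0.626% ± 0.109 and 0.473% ± 0.125, two-sided exact permutation p = 0.0571 for both, the smallest that 3 libraries against 4 allow, unadjusted over the tests of shares). B-1a and B-2 cells overlapped (exact permutation p = 0.143). Among WT libraries 3 and 4 the order was alike, with 4.72% and 5.37% in B-1b, 0.416% and 0.795% in B-1a and 0.342% in B-2 WT 4. The library labelled B-1a WT 2 held 2.96% and B-2 WT 1 held 1.90%, while B-1b WT 1 and WT 2 held 0.338% and 0.348%.

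**Figure D3:**
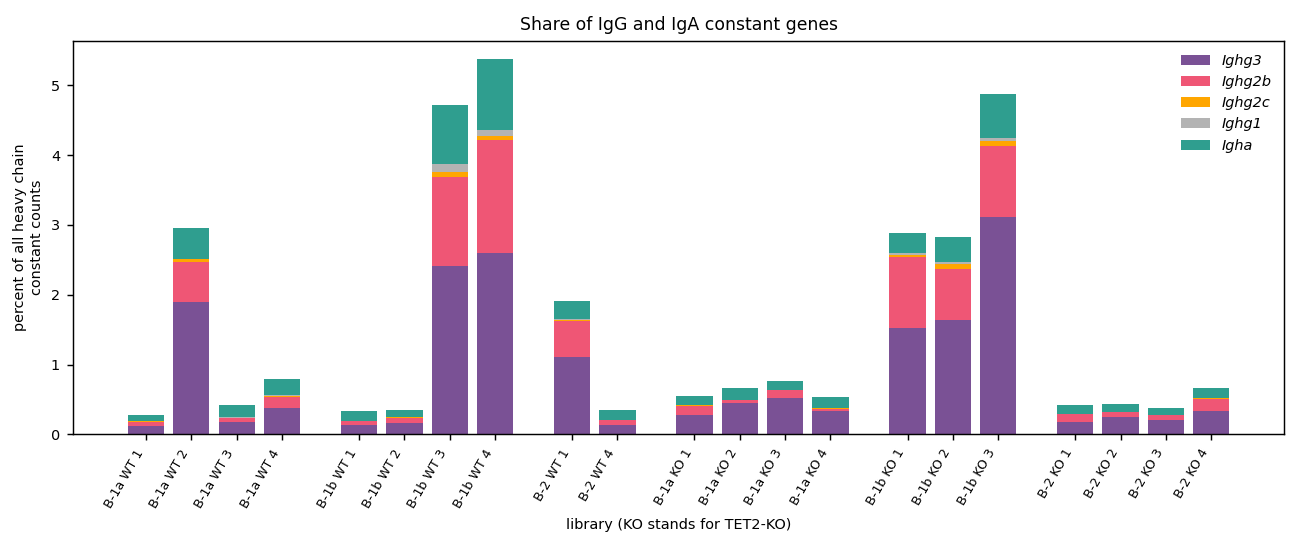
Stacked bars of the percent of heavy chain constant counts on the 4 Ighg genes and Igha in each of the 21 libraries, from 0 upwards. The bars of the TET2-KO B-1b libraries reach 2.83% to 4.88% and those of B-1b WT 3 and WT 4 reach 4.72% and 5.37%, above every TET2-KO B-1a and B-2 library.

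Ighg3 was the most abundant IgG gene in every library. TET2-KO B-1b libraries 1 to 3 held 282, 300 and 545 CPM. TET2-KO B-1a libraries 1 to 4 held 46.0, 80.4, 81.3 and 32.9 CPM. TET2-KO B-2 libraries 1 to 4 held 21.7, 31.6, 31.6 and 30.1 CPM. The B-1b values stood clear of the others, and the lowest B-1a value (32.9 CPM) was close to the highest B-2 value (31.6 CPM).

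Of all genes tested, 2.15% were called between TET2-KO B-1b and B-2 cells, that is, had an adjusted p under 0.05. Among the 7 constant genes tested, 5 were called, 4 of them higher in B-1b cells (1.52% of all genes). The other called gene was Ighd, which the sort gate set apart and which is no support for a difference. Ighe was removed by the filter on low counts. Ighg3 was 3.85 log2 higher in B-1b than in B-2 cells (SE 0.33, edgeR adjusted p = 2.02e-05). Between B-1a and B-2 cells 5.82% of all genes were called, and 2 of the 7 constant genes, Ighg3 and Ighd, the latter set apart by the gate. Ighg3 was 1.34 log2 higher in B-1a than in B-2 cells (SE 0.30, edgeR adjusted p = 0.0131). This call was lost when B-1a library 2, B-2 library 1 or B-2 library 4 was left out, with an adjusted p of at most 0.0579. Between B-1a and B-1b cells 0.205% of all genes were called, and 3 of the 7 constant genes, all lower in B-1a cells (0.194% of all genes). Ighg3 was lower in B-1a cells (log2 fold change -2.504, SE 0.32, edgeR adjusted p = 0.00445). These 3 comparisons share libraries and are not independent of each other.

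Ighg2b followed at a lower level. TET2-KO B-1b libraries held 189, 135 and 178 CPM, B-1a libraries 23.4, 7.54, 18.0 and 3.58 CPM, and B-2 libraries 13.6, 8.98, 9.38 and 16.8 CPM. B-1b cells lay above the others without overlap, whereas B-1a and B-2 cells overlapped fully. Ighg2b was 3.98 log2 higher in B-1b than in B-2 cells (SE 0.50, edgeR adjusted p = 0.000967). It was lower in B-1a than in B-1b cells by a log2 fold change of -3.58 (SE 0.49, edgeR adjusted p = 0.0114), a call lost when any of the 3 B-1b libraries was left out. Between B-1a and B-2 cells it differed by 0.40 (SE 0.45, approximate 95% interval -0.48 to 1.27), which did not pass the test.

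Ighg2c and Ighg1 were scarce. Ighg2c, the C57BL/6 counterpart of IgG2a, held 5.796, 13.4 and 11.7 CPM in TET2-KO B-1b libraries, 1.26, 0.488, 0.370 and 0.878 CPM in B-1a libraries and 0.1995, 0.088, 0.279 and 1.45 CPM in B-2 libraries. It was 4.67 log2 higher in B-1b than in B-2 cells (SE 0.78, edgeR adjusted p = 0.00392). Its B-2 values rested on few counts, and it did not reach 10 counts in every library, so the size of this fold depends on the fit. Against B-1b cells the B-1a value was -3.68 (SE 0.74, adjusted p = 0.0716), and -4.06 with an adjusted p of 0.0441 with the replicate block. Ighg1 held 5.85, 5.19 and 8.51 CPM in TET2-KO B-1b libraries, at most 0.434 CPM in B-1a libraries and at most 0.528 CPM in B-2 libraries, with 0 counts in 2 of the 4 libraries of each. Among TET2-KO cells it passed the filter on low counts only through the B-1b libraries, so its separation is no support for a difference. Neither difference passed edgeR's test (adjusted p = 0.235 against B-1a and 0.0570 against B-2 cells), and folds against so few counts depend on the fit.

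Igha, the IgA gene at the far end of the locus, showed the same order. TET2-KO B-1b libraries held 53.8, 65.6 and 110 CPM, B-1a libraries 22.6, 28.3, 20.6 and 15.7 CPM, and B-2 libraries 15.4, 14.8, 15.5 and 12.1 CPM. It was 2.52 log2 higher in B-1b than in B-2 cells (SE 0.29, edgeR adjusted p = 0.000191). It was lower in B-1a than in B-1b cells by a log2 fold change of -1.67 (SE 0.28, edgeR adjusted p = 0.0219), a call lost when B-1a library 3, B-1b library 2 or 3, or B-2 library 2 was left out. Between B-1a and B-2 cells, whose nearest values were 15.7 and 15.5 CPM, it differed by 0.85 (SE 0.27, adjusted p = 0.0728), and the replicate block gave 0.84 with an adjusted p of 0.0256.

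Overlap was also counted after scaling of the libraries by TMM factors, leaving out Ighg1, which passed the filter through B-1b cells, and Ighd, which the gate set apart. Ighm, Ighg3, Ighg2b, Ighg2c and Igha were higher in every TET2-KO B-1b than in every B-2 library, beside 7.52% of all genes tested that were higher and 19.5% in either direction. Ighg3, Ighg2b, Ighg2c and Igha were lower in every B-1a than in every B-1b library, beside 3.03% of all genes lower and 6.06% in either direction. Between B-1a and B-2 libraries 0 of these 5 genes separated, beside 19.1% of all genes.

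Ighe, the IgE gene, was at the limit of detection. It had 6 counts in TET2-KO B-2 library 3, 3 counts in B-1b WT 4 and B-2 WT 1, 1 count in 4 libraries and 0 counts in the other 14, and a library with 0 counts allows up to 3. It did not pass the filter for edgeR. By DESeq2, the 95% interval for TET2-KO against WT B-1a cells ran from -7.53 to 6.29 on the log2 scale, so a difference in Ighe could not be shown or bounded usefully at this depth.

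Among TET2-KO libraries the summed plasma cell markers were highest where the switched isotypes were. The summed level of the 5 genes Sdc1, Prdm1, Tnfrsf17, Xbp1 and Jchain was 247 to 303 CPM in TET2-KO B-1b, 111 to 215 CPM in B-1a and 125 to 216 CPM in B-2 libraries, and up to 2 of the 5 were at 0 in a library. Sdc1, the defining surface marker CD138, had 0 counts in B-1b library 3 and in B-1a library 4. Of the 4 markers that passed the filter, 0 were called between TET2-KO B-1a and B-1b cells, and their log2 fold changes had a median of 0.05. Among WT libraries the sum did not follow the switched share, with 211 and 255 CPM in B-1b WT 3 and 4 and 241 and 236 CPM in B-1b WT 1 and 2, whose switched shares were far lower. The part of plasma cells in the difference was not tested. Jchain, which joins IgM and IgA into polymers, stood at 19.9, 46.2 and 21.5 CPM in TET2-KO B-1b libraries, at 3.53 to 15.1 CPM in B-1a and at 0.865 to 4.34 CPM in B-2 libraries.

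**Figure D4:**
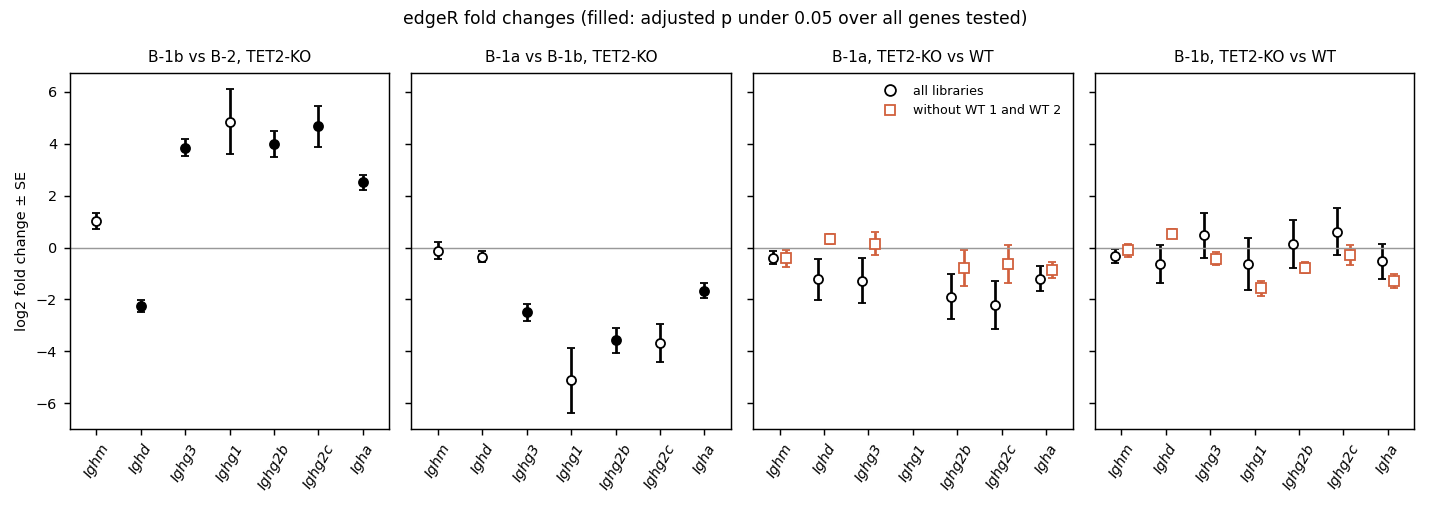
Log2 fold changes of the constant genes from edgeR, with bars of 1 SE, for 2 comparisons of TET2-KO subsets and for TET2-KO against WT cells in B-1a and B-1b cells, the latter with all libraries (circles) and without those labelled WT 1 and WT 2 (squares). Filled points had an adjusted p under 0.05. Ighg3, Ighg2b, Ighg2c and Igha lie 2.52 to 4.67 log2 above 0 for TET2-KO B-1b against B-2 cells, and no point of TET2-KO against WT cells is filled.

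Compared per kb of exon, so that genes of different length can be set side by side, the order of the levels was Ighm over Ighd in 21 of 21 libraries and Ighd over Ighg3 in 19 of 21, the exceptions being B-1a WT 2 and B-1b WT 4. Ighg3 was over Ighg2b in 21 of 21 libraries and over Igha in 20 of 21. Ighg2b and Igha had no fixed order, with Ighg2b higher in 9 of 21 libraries. Igha was over Ighg2c in 21 of 21 libraries, and Ighg2c was over Ighg1 in 18 of 21. In TET2-KO B-1b cells the mean levels were 8969 CPM per kb for Ighm, 302 for Ighd, 149.5 for Ighg3, 62.5 for Ighg2b, 28.6 for Igha, 7.76 for Ighg2c and 2.51 for Ighg1. In TET2-KO B-2 cells Ighm stood at 4888 and Ighd at 1604 CPM per kb. The switched genes thus did not follow their order along the chromosome, since Ighg1, directly downstream of Ighg3, was the lowest of the 7.

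**Figure D5:**
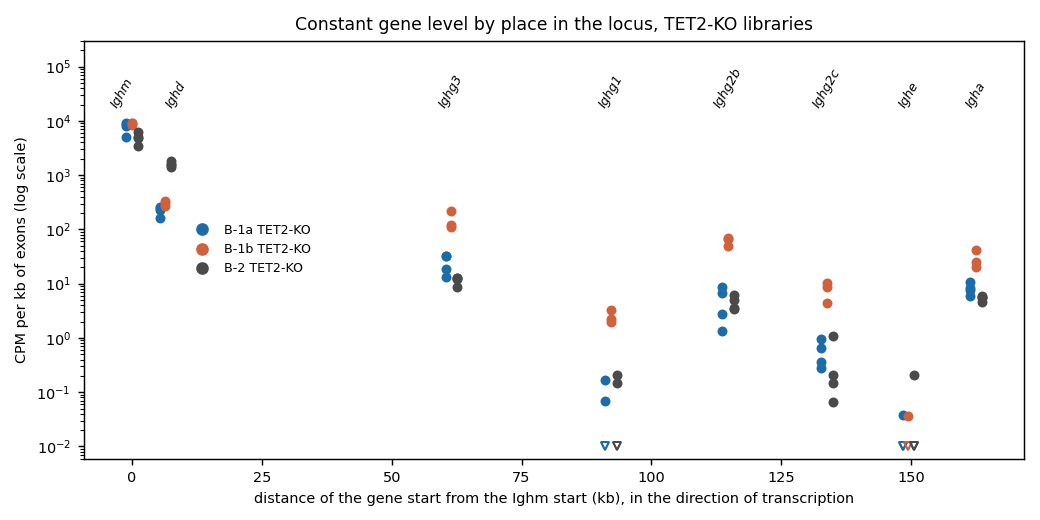
Level of each constant gene in CPM per kb of exon, on a log axis, in each TET2-KO library, colored by subset, against the distance of the gene's start from that of Ighm in kb. Triangles at the lower edge mark 0 counts. In B-1b cells the mean falls from 8969 at Ighm to 149.5 at Ighg3 and 2.51 at Ighg1, and stands at 28.6 at Igha, 162.5 kb downstream.

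WT B-1a and B-1b cells were compared to ask whether the same order holds with TET2. With all libraries as labelled, 0 of the 7 constant genes and 0 of all genes were called by edgeR (1 and 256 at an unadjusted p under 0.05, and 0 and 1, or 0.00273%, by DESeq2, which gave no p-value for Ighd). Ighg3 values were 20.2, 412, 33.4 and 71.5 CPM in B-1a WT 1 to 4 and 30.7, 27.3, 452 and 533 CPM in B-1b WT 1 to 4. Without the libraries labelled WT 1 and WT 2, that is, with 2 libraries against 2, Igha was lower in B-1a cells by a log2 fold change of -2.10 (SE 0.16, edgeR adjusted p = 1.13e-06) and Ighg2c by -3.35 (SE 0.33, edgeR adjusted p = 1.27e-05). In this fit 2 of the 7 constant genes were called, beside 3.31% of all genes.

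Igha held 33.7 and 44.1 CPM in B-1a WT 3 and 4, and 160 and 206 CPM in B-1b WT 3 and 4. Ighg2c held 0.847 and 1.36 CPM against 13.2 and 11.7 CPM. Ighg3 (-3.10), Ighg2b (-3.58) and Ighg1 (-3.46) pointed the same way with adjusted p of 0.0728, 0.196 and 0.176. Ighm (0.17) and Ighd (-0.15) differed little, with approximate 95% intervals from -0.15 to 0.49 and from -0.42 to 0.12.

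The effect of TET2 loss on these genes was the question of the design. In B-1a cells 0 of the 6 constant genes that passed the filter were called, beside 0.0503% of all genes, with 2 of the 6 at an unadjusted p under 0.05 and 0 called by DESeq2, beside 0.967%. DESeq2 gave no p-value for Ighd and Ighg2c here, so it did not test these 2. Without the filter on low counts edgeR called 1, Ighg2c. No constant gene separated the groups, beside 5.57% of all genes. The 5 erythroid markers, 4 of them globin genes, also differed between these libraries, with sums of 10.4 to 1452 CPM in WT and of 1.41 to 28.6 CPM in TET2-KO B-1a cells and up to 1 of the 5 at 0 in a TET2-KO library. Their median log2 fold change was -6.34 and -4.01 without WT 1 and WT 2, with 0 called by edgeR and 4 by DESeq2 over all libraries, and their part in the values of the constant genes was not tested. Ighm was 13879, 20991, 18988 and 18493 CPM in WT libraries 1 to 4, against 16378, 17412, 15104 and 9542 CPM in TET2-KO libraries. The groups overlapped, and the log2 fold change was -0.40 (SE 0.25, edgeR adjusted p = 0.649, approximate 95% interval -0.89 to 0.10), or -0.41 with the WT 1 and WT 2 libraries left out. The share of Ighm was 96.4% ± 0.993 in TET2-KO and 93.7% ± 7.13 in WT cells (exact permutation p = 0.857), a difference of 2.68 points that became -1.33 points without those 2 libraries.

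The other B-1a differences moved with the same libraries. Ighd had a log2 fold change of -1.23 with all libraries and 0.32 without WT 1 and WT 2, and Ighg3 had -1.27 and 0.15. Ighg2b went from -1.89 to -0.78, Ighg2c from -2.22 to -0.63, and Igha from -1.21 to -0.88, none called in either fit. Without the 2 libraries every TET2-KO B-1a library lay below both WT libraries in Igha (15.7 to 28.3 CPM against 33.7 and 44.1 CPM) and, after TMM scaling, above both in Ighd, beside 12.7% of all genes that separated in this way. In CPM the Ighd values of 314 to 491 in TET2-KO libraries overlapped with the 312 and 332 of WT 3 and 4.

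In B-1b cells 0 of 7 constant genes and 0% of all genes were called, with 0 and 787 at an unadjusted p under 0.05, and DESeq2 called 0 of the constant genes and 49 genes in all, or 0.297%. Ighd got no p-value from DESeq2 and was not tested by it. With all libraries, 0 of the 7 separated the groups, beside 7.72% of all genes. Ighm was 22919, 14972, 17472 and 19011 CPM in WT libraries 1 to 4 against 17429, 17320 and 15997 CPM in TET2-KO libraries (log2 fold change -0.32, SE 0.28, edgeR adjusted p = 0.839). Against B-1b WT 3 and 4 alone the difference was -0.11 (SE 0.24). Igha was 160 and 206 CPM in these 2 WT libraries and 53.8, 65.6 and 110 CPM in the TET2-KO libraries, without overlap (log2 fold change -1.30, SE 0.26, edgeR adjusted p = 0.999, unadjusted 0.00146). Ighg1 was 20.5 and 17.3 CPM against 5.85, 5.19 and 8.51 CPM (log2 fold change -1.57, SE 0.30, edgeR adjusted p = 0.898, unadjusted 0.00103). Ighg2b also lay lower in every TET2-KO library (239 and 332 CPM against 135 to 189 CPM) and Ighd higher. These 4 of 7 genes separated beside 19.3% of all genes, and 0 passed the adjusted test.

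Igha in B-1b cells therefore had a log2 fold change of -0.53 with all libraries as labelled and -1.30 without those labelled WT 1 and WT 2, and Ighg3 had 0.47 and -0.43. In either fit the interaction test, which sets the effect in B-1a against that in B-1b cells, called 0 of 7 constant genes (adjusted p = 1.00).

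In B-2 cells there were 2 WT libraries, which went apart. B-2 WT 1 held 21524 CPM of Ighm, 248 CPM of Ighg3, 114 CPM of Ighg2b and 55.7 CPM of Igha, and B-2 WT 4 held 10028, 17.3, 9.18 and 17.6 CPM. TET2-KO B-2 cells ran from 6406 to 11578 CPM in Ighm, from 21.7 to 31.6 CPM in Ighg3 and from 12.1 to 15.5 CPM in Igha. With both WT libraries, 0 of 6 constant genes and 0% of all genes were called (4 and 1754 at an unadjusted p under 0.05), while DESeq2 called Igha and 144 genes in all, or 0.672%. Each TET2-KO library held less Igha than both WT libraries, beside 19.7% of all genes that separated. Against B-2 WT 4 alone, whose spread was assumed to be like that of the TET2-KO libraries, the log2 fold changes were -0.26 for Ighm, -0.13 for Ighd, 0.54 for Ighg3 and -0.44 for Igha. Against B-2 WT 1 alone, the library whose Fcer2a went against its label, they were 2.91 for Ighd, -3.60 for Ighg3, -3.75 for Ighg2b and -2.41 for Igha, all 4 called beside 2.33% of all genes.

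Other genes of the pathway were taken from 3 lists. Among 25 genes of the class switch DNA machinery, 23 of the signals that direct the choice of isotype, and 18 of IgM and IgD processing and assembly, 0 were called by edgeR between TET2-KO and WT cells in any subset. DESeq2 called 1 gene of the switch list, higher in TET2-KO B-1b cells, beside 0.297% of all genes. It also called Jchain, lower in TET2-KO B-1a cells (log2 fold change -1.82, DESeq2 adjusted p = 0.0277), beside 0.967% of all genes. By edgeR, the 3 lists had median log2 fold changes of 0.04, -0.22 and -0.17 in B-1a and 0.01, -0.07 and -0.15 in B-1b cells, beside 0.02 and -0.01 over all genes tested. Without WT 1 and WT 2 these medians were 0.06, -0.08 and -0.13 in B-1a and -0.01, 0.06 and 0.04 in B-1b cells, again with 0 called.

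Of the 25 switch genes, Rif1, which protects DNA ends from resection, was lower in TET2-KO B-1a than in B-2 cells (log2 fold change -0.85, edgeR adjusted p = 0.0334). Of the 23 signal genes, Tnfrsf13b, the receptor TACI, was higher in B-1a (0.82, edgeR adjusted p = 0.0112) and in B-1b than in B-2 cells (0.86, adjusted p = 0.0269). Bcl6, a repressor needed by germinal centre B cells, was lower in B-1a (-1.94, adjusted p = 0.000201) and B-1b cells (-1.58, adjusted p = 0.00527), while Runx3, a factor of the IgA response to TGF-beta, was lower in B-1a cells (-0.82, adjusted p = 0.0333). For B-1a against B-2 cells, 1 switch gene was higher and 1 lower, 1 signal gene was higher and 2 lower, and 2 processing genes were higher and 1 lower, with median log2 fold changes of -0.11, -0.27 and 0.29 beside -0.05 over all genes. For B-1b against B-2 cells these were 1 and 0, 1 and 1, and 2 and 1, with medians of 0.05, -0.13 and 0.30 beside -0.10. Of all genes tested, 5.82% were called in the first of these comparisons and 2.15% in the second. The lower processing gene in both was Zfp318, which is given below without a test because of the sort gate. Between TET2-KO B-1a and B-1b cells 0 genes of the 3 lists were called, beside the 0.205% of all genes given above.

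Zfp318 encodes the protein that lets the transcript run on into Ighd, and it moved with Ighd. TET2-KO B-2 libraries held 50.3, 63.4, 49.3 and 104 CPM of it, and the 7 TET2-KO B-1 libraries 8.22 to 18.4 CPM. Low surface IgD was part of the gate for B-1 cells, so this difference, like that of Ighd, is a description and carries no test. The fitted log2 fold change of Zfp318 was -2.14 for B-1a and -2.02 for B-1b against B-2 cells. Among the WT libraries Zfp318 was 30.8 CPM in B-1a WT 1, 23.8 CPM in B-1b WT 2 and 47.6 CPM in B-2 WT 4, and 6.95 CPM in B-2 WT 1. Mzb1, a chaperone of IgM assembly, was 1.55 log2 higher in B-1a (edgeR adjusted p = 0.00117) and 1.49 higher in B-1b than in B-2 cells (adjusted p = 0.00534). Jchain was 2.25 higher in B-1a (adjusted p = 0.0226) and 3.88 higher in B-1b cells (adjusted p = 0.00188). Igkc, Cd79a and Cd79b, the kappa constant gene and the signalling partners of the B cell receptor, were called by edgeR in none of the comparisons. In WT B-1a against B-1b cells without WT 1 and WT 2, Id2, an inhibitor of E proteins (0.66, edgeR adjusted p = 0.0116), and Fcmr, the receptor for IgM (0.74, adjusted p = 0.00972), were higher in B-1a cells.

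The genes whose level followed a constant gene most closely over the 21 libraries were found among 22597 genes by Pearson's r of log2 CPM, as a description of libraries that share subset, genotype and depth. For Ighg3 these were Ighg2b (r = 0.928), Igha (0.916) and Ighg2c (0.910). For Ighg2b they were Ighg3, Ighg2c (0.913) and the variable gene Ighv1-11 (0.901). For Igha they were Ighg3, Ighg2b (0.892) and Tspan17 (0.891). The nearest gene of each of these 3 was thus another switched gene, and Ighg1, Ighg2c and Ighe, with a median under 1 CPM, were left out. Ighd was nearest to Gm47782 (0.953), Icosl (0.945) and Bcl6 (0.940), and Ighm to Rac2 (0.974), Pea15a (0.967) and Ms4a1 (0.960), which encodes the B cell marker CD20.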

How the data were processed

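RNA of sort-purified peritoneal B cells was sequenced in 21 libraries. The authors used fastp for trimming and STAR for alignment to GRCm39 (versions not given in the sources used here). They counted fragments per gene with featureCounts 1.6.1 on GENCODE vM32, unstranded, and left out fragments with several alignments. The values they deposited are whole-number counts per gene, neither normalized nor filtered. The paper names full-length cDNA amplification of total RNA, whereas the labels name poly-T selection with random priming, so the selection step is not certain. Without molecular identifiers, counts of reads are not independent molecules, and limits from counts cover counting error only. Of 210 pairs of libraries, 0 held identical counts.

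Of the gene identifiers, 56310 of 56953 were given a symbol from a GENCODE annotation, and 643 had none. The 8 constant genes, their positions and the sequences were taken from the GRCm39 genome and annotation. CPM used the sum over all genes. Genes were tested with edgeR 4.0.16 (R 4.3.3, limma 3.58.1) with TMM factors, edgeR's standard low-count filter with the groups given, a robust quasi-likelihood fit, and p-values adjusted by Benjamini-Hochberg over all genes at 0.05. Each comparison of TET2-KO with WT cells was fitted on its own libraries, the 3 TET2-KO subsets were fitted together, and an interaction over 4 groups set the TET2-KO effect in B-1a against that in B-1b cells. For shares, mean differences were tested by exact permutation, two-sided, in 56 tests of single genes without adjustment. The test was written out for groups of 1 library and was checked against that of scipy 1.17.1 on drawn values. The sum of the switched isotypes was tested in the same way, beyond these 56 tests. The code was tested on simulated counts first. For B-1a TET2-KO against WT cells, edgeR recovered 30% of simulated 2-fold and 76% of 4-fold changes, and 7.83% of its calls were false. For TET2-KO B-1a against B-2 cells these values were 16%, 68% and 4.55%. A result of 0 genes called therefore does not show that levels were equal.

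The members and lists were chosen with earlier results of these data known. Named genes were the 8 constant genes, 7 genes given in every case (Zfp318, Jchain, Mzb1, Igkc, Cd79a, Cd79b and a gene that is not reported here), up to 6 genes per list and comparison with an adjusted p under 0.05, and the 3 genes with the highest correlation to each constant gene with a median of at least 1 CPM. Tet2, Fcer2a, Cd5 and the genes of the marker lists are given as checks. Alternatives were DESeq2 1.42.0, RLE factors, TMM without immunoglobulin genes, no filter, at least 10 counts in every library, a block for the replicate number, leaving out 1 library at a time, leaving out the WT 1 and WT 2 libraries, and, for shares, counts per exon length, pooled counts and a denominator without Ighd.

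The replicate numbers were checked as a pairing by the correlation of deviations from the group means over 8061 genes. Same-numbered TET2-KO B-1a and B-2 libraries gave 0.370 to 0.673 in 4 pairs and B-1a and B-1b libraries 0.278 to 0.493 in 3 pairs, so these numbers were taken to pair the libraries. For B-1b with B-2 the lowest was 0.0343, and WT or cross-genotype pairs included values below 0, so they were not. The block nonetheless used the numbers of all TET2-KO subsets at once. Libraries with different numbers were not compared, so the pairing is uncertain and fits with the block serve only as an alternative. No label states a pairing.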

Additional observations from a re-analysis of the deposited data

Results flagged for a closer look

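In groups of 4 libraries, 12 of the values given per library lay apart from the other 3 by more than Dixon's 95% limit allows, over 56 sets of 4 values tested. Chance alone gives about 1 in 20, and CPM and share of the same gene are not independent. Most are WT libraries that went against their labels. The library labelled B-1a WT 1 held 2785 CPM of Ighd, 16.7% of its constant counts, and its Ighm share was 83.1%. The library labelled B-1b WT 2 held 2165 CPM of Ighd, or 12.6%. The library labelled B-1a WT 2 held 412 CPM of Ighg3, or 1.89%, and 9.81 CPM of Ighg2c, or 0.0450%. Among TET2-KO B-2 libraries, library 1 was low in Ighg3 with 21.7 CPM, and library 4 was high in Ighg2c with 1.45 CPM, or 0.0158%.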

How the results depend on the processing

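Among TET2-KO subsets the calls of Ighg3, Ighg2b and Igha between B-1b and B-2 cells held in every alternative run for them. That of Ighg2c held wherever it passed the filter, which it did not with at least 10 counts in every library. Ighd, set apart by the gate, passed against B-2 cells in every alternative, which is no support for a difference. What depth limits is Ighe, Ighg1 and Ighg2c. RLE factors moved the median of all genes from -0.05 to -0.15 (B-1a against B-2) and from -0.10 to -0.20 (B-1b against B-2), with the same constant genes called. The cause of the changes below was not tested, other than that fewer libraries or more genes entered a fit.

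The number of genes called changed with the tool. For TET2-KO against WT it was 7 in B-1a, 0 in B-1b and 0 in B-2 cells with edgeR, then 183, 49 and 144 with DESeq2, and 318, 131 and 167 without a filter. For TET2-KO B-1a against B-2, B-1b against B-2 and B-1a against B-1b it was 1080, 399 and 38, then 3478, 2678 and 142 with DESeq2, and 1699, 870 and 123 without a filter. For WT B-1a against B-1b and for the interaction it was 0 and 0, then 1 and 1 with DESeq2, and 27 and 144 without a filter, where the interaction called Ighg3, Ighg2b and Ighg2c. Both without a filter and by DESeq2, further constant genes were called, which were Ighg1 and Ighm between TET2-KO B-1b and B-2 cells, Ighg1 and Ighg2c between B-1a and B-1b, Ighm between B-1a and B-2, and Igha between TET2-KO and WT B-2 cells. Without a filter these also included Igha between TET2-KO B-1a and B-2 cells and Ighg2c between TET2-KO and WT B-1a cells. Without the libraries labelled WT 1 and WT 2 it was 0 in B-1a cells and 500 in WT B-1a against B-1b cells.

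With the replicate block the numbers were 48 in B-1a cells, 1638, 667 and 103 in the TET2-KO subset comparisons in the order above, 2 in WT B-1a against B-1b cells and 1 for the interaction. The Ighm share of TET2-KO B-1a over B-2 cells stayed at 22.0 points, but its paired test cannot pass 0.05 with 4 pairs. The block turned the log2 fold change in TET2-KO against WT B-1b cells to 0.43 for Igha and 1.34 for Ighg1 and the Igha share difference to 0.0576 points, Ighm in TET2-KO B-1a against B-1b cells to 0.084, Ighd in WT B-1a against B-1b cells to -0.14 and Ighm in the interaction to 0.062. Beside the calls of Ighm, Igha and Ighg2c given above, it changed no other call of a constant gene.

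Leaving out 1 library gave 0 to 6 called genes in B-1a, 0 to 576 in B-2 (576 without B-2 WT 4), 608 to 2015, 177 to 768 and 15 to 57 in the TET2-KO subset comparisons. The lowest came without B-2 library 2 for both comparisons with B-2 cells and without B-1b library 1 for B-1a against B-1b, and the highest without B-1b library 3, B-1a library 4 and B-1a library 1. Share differences in TET2-KO against WT B-1a cells ranged from -0.868 to 4.10 points for Ighm, -3.69 to 1.63 for Ighd and -0.421 to 0.169 for Ighg3. In B-1b cells they ranged from -1.61 to 2.31 for Ighm, -2.36 to 1.55 for Ighd, -0.0675 to 0.455 for Ighg2b and -0.245 to 0.0576 for Igha, and in B-2 cells from -0.873 to 0.108 for Ighg3 and -0.406 to 0.0362 for Ighg2b. In TET2-KO B-1a against B-2 cells they ranged from 20.5 to 22.9 for Ighm and -0.0424 to 0.00137 for Ighg2b, in TET2-KO B-1a against B-1b cells from -0.614 to 0.231 for Ighd, and in WT B-1a against B-1b cells from -1.20 to 4.31 for Ighm and -3.003 to 3.57 for Ighd.

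Log2 fold changes that turned when 1 library was left out ranged, in TET2-KO against WT B-1a cells, from -1.64 to 0.47 for Ighg3 (positive without WT 2) and -1.59 to 0.58 for Ighd (positive without WT 1). In B-1b cells they ranged from -0.23 to 0.84 for Ighg2b, -1.02 to 0.043 for Ighg1 and -0.95 to 0.70 for Ighd, and in B-2 cells from -3.59 to 1.37 for Ighg2c, -3.75 to 0.19 for Ighg2b, -3.60 to 0.54 for Ighg3 and -0.13 to 2.91 for Ighd. In TET2-KO B-1a against B-2 cells they ranged from -0.14 to 0.72 for Ighg2b and -1.62 to 0.33 for Ighg1, in TET2-KO B-1a against B-1b cells from -0.29 to 0.075 for Ighm, in WT B-1a against B-1b cells from -1.59 to 1.58 for Ighd and -0.15 to 0.19 for Ighm, and in the interaction from -1.95 to 1.23 for Ighd and -0.32 to 0.10 for Ighm.

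Without the libraries labelled WT 1 and WT 2, share differences in B-1a cells became -1.33 points for Ighm, 1.31 for Ighd and 0.117 for Ighg3. In B-1b cells they became 1.16 for Ighd, -0.416 for Ighg3 and -0.523 for Ighg2b, in B-2 cells 0.108 for Ighg3 and 0.0362 for Ighg2b, and in WT B-1a against B-1b cells -0.322 for Ighd. Log2 fold changes became 0.15 for Ighg3 and 0.32 for Ighd in B-1a cells, -0.29 for Ighg2c, -0.78 for Ighg2b, -0.43 for Ighg3 and 0.53 for Ighd in B-1b cells, and 1.37 for Ighg2c, 0.19 for Ighg2b, 0.54 for Ighg3 and -0.13 for Ighd in B-2 cells. They became -0.15 for Ighd and 0.17 for Ighm in WT B-1a against B-1b cells, and 0.42 for Igha and 0.58 for Ighg3 in the interaction. With Ighd left out of the denominator the Ighm share difference became -0.893 points in B-1b and 0.548 in B-2 cells between genotypes, and -0.00659 and -3.01 for TET2-KO B-1a and B-1b against B-2 cells, and that of Igha for B-1a against B-2 became -0.0102.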

Other observations

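Igkc, the kappa light chain constant gene, held 14684, 13370, 12768 and 12798 CPM in TET2-KO B-1a libraries 1 to 4 and 20107, 19189, 21111 and 16213 CPM in WT libraries 1 to 4. The groups did not overlap in CPM, beside 5.57% of all genes that separated after TMM scaling. The log2 fold change was -0.62 (SE 0.18) and did not pass edgeR's test over all genes (adjusted p = 0.388, unadjusted 0.00566), and it was -0.55 (SE 0.25) without WT 1 and WT 2. In B-1b cells the groups overlapped, with 9851 to 16465 CPM in TET2-KO and 13587 to 24292 CPM in WT libraries (log2 fold change -0.64, SE 0.37, edgeR adjusted p = 0.838), and the value was -0.12 without WT 1 and WT 2.

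In B-1a cells Jchain lay at 3.53 to 15.1 CPM in TET2-KO libraries against 9.23, 54.5, 27.5 and 27.1 CPM in WT libraries 1 to 4 (log2 fold change -1.81, SE 0.55, adjusted p = 0.465 by edgeR and 0.0277 by DESeq2), and the groups overlapped. With WT 1 and WT 2 left out it was -1.65 (adjusted p = 0.851). In B-1b cells it was -0.26 (SE 0.43, edgeR adjusted p = 0.912), and -0.28 with WT 1 and WT 2 left out.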
